A study of Homo sapiens with 4 samples.

Results

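The Notch receptors NOTCH1, NOTCH2 and NOTCH3, the ligands JAG1, JAG2 and DLL1, and the target genes HES1, HES4, HEY1 and NRARP were followed in RNA sequencing libraries of Daoy, a human medulloblastoma cell line. They were taken by gene name, and all 10 were found among the 59384 gene names with readable counts. One group received shFABP4 lentivirus, whose hairpin targets the fatty acid binding protein FABP4 (2 libraries), and the control group received pLKO virus (2 libraries). Every library came from the same line, so the comparison covers 1 cell line. The labels do not say whether the libraries of a group were separate infections, so the p-values rest on library spread that may be technical.

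Notch signalling passes between neighbouring cells. A ligand of the Jagged or Delta family on one cell binds a Notch receptor on the next, the receptor is cut by ADAM proteases and then by γ-secretase, and its freed intracellular domain joins the DNA-binding protein RBPJ to switch on target genes. Most of the targets followed here encode repressors of the HES and HEY families, and NRARP encodes a feedback inhibitor of the intracellular domain. In the developing cerebellum, NOTCH2 and HES1 are known for their activity in granule neuron progenitors, from which some medulloblastomas arise.

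The libraries were unequal. The shFABP4 libraries held 2539862 (library 1) and 20431660 (library 2) counted fragments, and the pLKO libraries 8988961 and 13839885. In the library labelled shFABP4 1, 51762 gene names had a fragment, against 22350 in shFABP4 2 and 23372 and 25560 in pLKO. Olfactory receptor genes, which Daoy cells should not express, carried 6.55 fragments per kb there, against 0.222 in shFABP4 2 and 0.213 and 0.355 in pLKO. From 2657 coding genes empty in the other 3 libraries, a background of 3.81 fragments per kb (under 40% GC) to 18.9 (60% GC or more) was estimated for that library, and the fragments it predicts are set beside the counts below. The targeted gene, FABP4, had 14 and 0 fragments in shFABP4 1 and 2 and 1 and 6 in pLKO, with 5.21 expected from background in library 1. Library 1 thus held more FABP4 fragments than either pLKO library, at 2.69 times background. FABP4 counts were too low in every library to show whether its RNA was lowered. Of 11 neural and medulloblastoma markers, ATOH1, BARHL1 and OTX2 were at 0 in shFABP4 2 and in both pLKO libraries. The 11 together reached 422 CPM (counts scaled to the library total) in shFABP4 1, with 265 expected from background, 38.8 in shFABP4 2, and 12.9 and 14.2 in pLKO. Of 6 mesenchymal markers, 5 to 6 were detected in every library, summing to 1602 and 7086 CPM in shFABP4 and 1920 and 1935 in pLKO. The 4 epithelial markers summed to 608 and 3424 CPM in shFABP4, against 1956 and 1989 in pLKO, nearly all of it from KRT8 and KRT18. The other members, CDH1 and EPCAM, had 0 and 15 fragments in shFABP4 2. In pLKO CDH1 had 0 and 2 fragments and EPCAM 2 and 10. The endothelial and leukocyte lists each summed to at most 1.32 CPM outside the library labelled shFABP4 1, where they reached 195 and 30.7 against 135 and 39.1 expected from background. The part of these markers in the results below was not tested.

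As FPKM (counts scaled to exon length and library total), HES4 was the most abundant of the 10 genes in shFABP4 2 and in both pLKO libraries, where it stood alone at the top. It reached 30.6 in shFABP4 2, and 83.7 and 79.3 in pLKO. In shFABP4 2 the order was HES4, HES1, NOTCH2, JAG2, NOTCH3, JAG1, NRARP, DLL1, NOTCH1 and HEY1, with HES1 second at 4.18 and NOTCH1 ninth at 0.254. The 95% Poisson intervals of HES1 and NOTCH2 overlapped there, as did those of NOTCH2 and JAG2, and such intervals cover counting error only. In the library labelled shFABP4 1 NOTCH1 (25.9), JAG2 (24.4), HES4 (20.8), NOTCH3 (11.8) and NRARP (8.2) led, which are the 5 members whose transcripts hold 60% GC or more. In pLKO, NOTCH2 came after HES4 at 3.18 and 3.30, then JAG2 at 2.33 and 2.63 and NOTCH3 at 1.76 and 1.76. HES1 followed at 1.67 and 1.44, NRARP at 0.969 and 0.985, JAG1 at 0.730 and 0.831 and NOTCH1 at 0.568 and 0.675. DLL1, at 0.320 and 0.322, and HEY1, at 0.0608 and 0.0527, came last. By the same intervals, neighbours from NOTCH3 down to NOTCH1 were not separated in either pLKO library, while HES4, NOTCH2 and JAG2 were separated from one another in both.

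**Figure D1:**
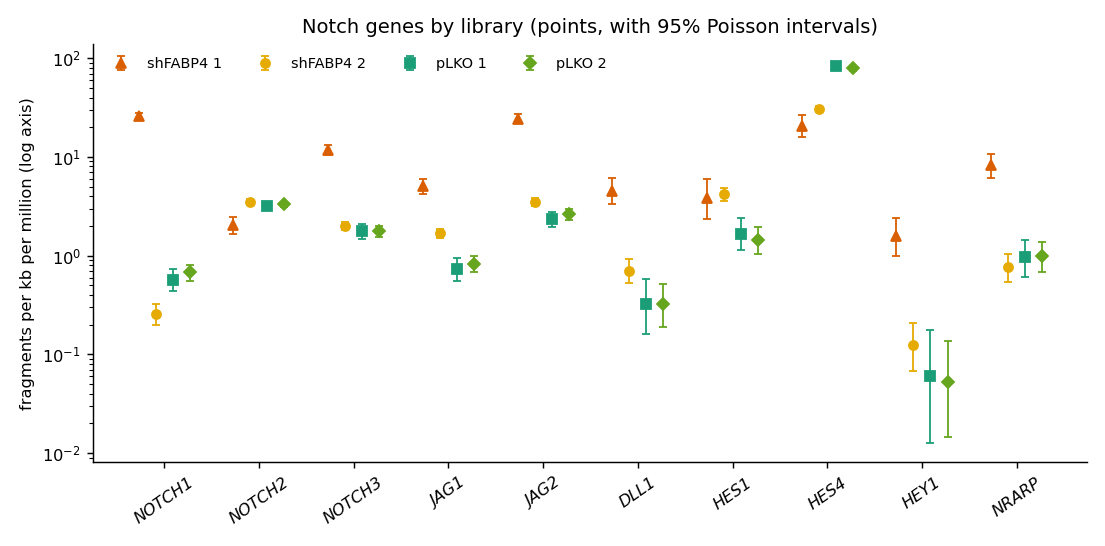
FPKM (log axis) of the 10 Notch genes in each library, shFABP4 left of pLKO, with bars for the 95% Poisson interval. HES4 lies far above the rest in pLKO (83.7 and 79.3) and lower in shFABP4 (20.8 and 30.6), and the library labelled shFABP4 1 stands apart for most other genes.

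Across all 4 libraries, 9 of the 10 genes could be tested for a difference between shFABP4 and pLKO, and none passed an adjusted p of 0.05 in edgeR's quasi-likelihood test. The same held for all 14735 genes tested, of which 0 passed (0%), while 1818 (12.3%) had an unadjusted p under 0.05. Among the members 1 had, HES4. DESeq2 called 719 genes (5.08%), edgeR with the replicate number as a block 28 (0.19%) and edgeR with no low-count filter 69 (0.132%), with 0 members in each, and limma-voom called 0 genes. All 9 tested members exceeded the low-count filter of 0.876 CPM in both pLKO libraries, so none entered the test through shFABP4 alone, and HEY1 failed the filter. After TMM scaling, JAG1, JAG2, DLL1 and HES1 lay above both pLKO libraries in both shFABP4 libraries, that is 4 of 9 against 28.5% of all genes tested. NOTCH2 and HES4 lay below in both, 2 of 9 against 26.1%. Scaled by library total, 5 of 9 lay above (43.3% of all genes tested) and 1 below (15.9%). Scaled by the 500 genes with the most pLKO counts, 7 of 9 lay above (69.8%) and 0 below (2.76%). In library 1 NOTCH2, DLL1, HES1 and NRARP were not detectable above background. NOTCH3, JAG1 and HES4 stood there at 1.59, 1.66 and 2.80 times background, under the 95th percentile of 2.90 among background genes. The median log2 fold change of the 9 was 1.21, against 0.34 over all genes tested. With the library labelled shFABP4 1 left out it was -0.06, against 0.04 over all genes. With 2 libraries against 2, an exact permutation test of a single gene cannot go below p = 0.333.

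Among the receptors, NOTCH2 was the most abundant per length in shFABP4 2 and in both pLKO libraries. It lies on chromosome 1 (119911553 to 120100779, minus strand, GRCh38, as all positions of counted genes below). NOTCH2 had 103 and 1436 fragments in shFABP4 1 and 2, and 570 and 910 in pLKO. The 103 fragments of the library labelled shFABP4 1 stand below the 154 expected from background, so NOTCH2 RNA was not detectable there above it. As CPM, NOTCH2 in shFABP4 2 (70.3) lay slightly above pLKO (63.4 and 65.8). Its log2 fold change over all libraries was -0.71 (SE 0.70, edgeR, adjusted p = 0.593). Of its human-specific partial copies, which can share fragments with it, NOTCH2NLA had 2 and 3 fragments in shFABP4 and 17 and 10 in pLKO, and the number of shared fragments was not tested.

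NOTCH1 (chromosome 9, 136494433 to 136546048, minus strand), the receptor best known from T-cell leukaemia, had 824 and 65 fragments in shFABP4 and 64 and 117 in pLKO. Library 1 lay far above pLKO and library 2 below it, at 324 CPM in library 1 and 3.18 in library 2, against 7.12 and 8.45. The 824 fragments were 3.48 times the 237 expected from background, above the 95th percentile (2.90) of that ratio among 1068 background genes with at least 20 expected fragments. Over all libraries the log2 fold change of NOTCH1 was 3.35 (SE 1.85, edgeR, adjusted p = 0.421), a mean of a very high and a low library. NOTCH3 (chromosome 19, 15159038 to 15200995, minus strand), a receptor prominent in vascular smooth muscle, had 282 and 385 fragments in shFABP4 and 149 and 229 in pLKO. In shFABP4 2 its CPM of 18.8 was close to the 16.6 and 16.5 of pLKO. In library 1 its count was 1.59 times background, under the 95th percentile of 2.90. Its log2 fold change was 1.07 (SE 0.73, edgeR, adjusted p = 0.473).

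Among the ligands, JAG1 (chromosome 20, 10637684 to 10673999, minus strand), the ligand mutated in Alagille syndrome, had 119 and 319 fragments in shFABP4, against 61 and 107 in pLKO. Both shFABP4 libraries were above both pLKO libraries as CPM (46.9 and 15.6 against 6.79 and 7.73). The log2 fold change was 1.30 (SE 0.53, edgeR, adjusted p = 0.392). The library 1 count of JAG1 was 1.66 times background, under the 95th percentile of 2.90 among background genes. JAG2 (chromosome 14, 105140982 to 105168824, minus strand), the second Jagged ligand, had 397 and 453 fragments in shFABP4 and 134 and 233 in pLKO. Its CPM were 156 and 22.2 against 14.9 and 16.8, and its log2 fold change was 1.57 (SE 0.81, edgeR, adjusted p = 0.406). With 3.29 times background in library 1, JAG2 was the other member above the 95th percentile of background genes. DLL1 (chromosome 6, 170282206 to 170306565, minus strand), a Delta-type ligand, had 44 and 55 fragments in shFABP4 and 11 and 17 in pLKO, with 61.9 expected from background in library 1. DLL1 RNA was therefore not detectable above background in that library. Its log2 fold change was 2.09 (SE 0.92, edgeR, adjusted p = 0.392). Exons of FAM120B on the other strand cover 9.69% of the DLL1 exon bases, and counting ignored strand.

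The targets differed in level and in side. HES1 and HES4 encode basic helix-loop-helix repressors, and HES1 is the classical direct target of the Notch intracellular domain. In the RefSeq promoters of these 2 genes (GRCh38.p14) the RBPJ-type motif GTGNGAA, searched on both strands in 250 bases before to 50 after each start, occurs as a facing pair separated by 16 bases. The stretches below run 5′ to 3′ on the gene's strand to the end of the pair, with the motif letters of both sites in capitals, and are shown because HES1 and HES4 lay on opposite sides of pLKO.
HES1, chr3:194136023-194136092, plus strand: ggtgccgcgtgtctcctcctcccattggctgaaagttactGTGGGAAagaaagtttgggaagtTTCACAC
HES4, chr1:1000145-1000214, minus strand: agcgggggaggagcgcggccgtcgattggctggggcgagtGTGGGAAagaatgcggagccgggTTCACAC
Over the 30 bases from the first to the last capital, 21 were identical between the 2 genes. The search itself required the motif letters other than N, so part of that identity was fixed in advance. At least 1 match was present in 13.8% of 35116 promoters, and a facing pair with this spacing in 3 (0.00854%), the third being that of ITIH4. In the counted annotation HES4 exons reach position 1000172, inside the stretch shown. The pair ends 56 bases before the HES1 start and 48 before the HES4 start. No match was present in the windows of NOTCH1, NOTCH2, NOTCH3, JAG1, JAG2 and NRARP. DLL1 has no entry, and the window of HEY1 is not reported here.

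HES4 (chromosome 1, 998962 to 1000172, minus strand) had 59 and 700 fragments in shFABP4, against 841 and 1227 in pLKO. Both shFABP4 libraries lay below both pLKO libraries as CPM, at 23.2 and 34.3 against 93.6 and 88.7. After TMM scaling HES4 averaged 27.4 ± 17.1 CPM in shFABP4 and 124 ± 4.2 in pLKO (SD, n = 2 each). The log2 fold change was -2.17 (SE 0.67, unadjusted p = 0.0287, edgeR, adjusted p = 0.391). In library 1 HES4 held 2.80 times the 21.1 fragments expected from background, under the 95th percentile of 2.90 among background genes. In bulk RNA, fewer expressing cells and less RNA per cell cannot be told apart. When scaled by the 500 genes with the most pLKO counts, the shFABP4 values of HES4 were 145 and 64.9 and those of pLKO 128 and 121, so library 1 then lay above pLKO, and with its background subtracted (93.2) below. That scaling put HES4 at a log2 fold change of -0.26 (SE 0.82) and moved the median of all genes to 2.67. Relative to the median of all genes HES4 lay between -2.93 and -2.51 under the 5 scalings tried. Subtracting the median removes most of what a change of scaling does, so this range does not show that HES4 is independent of scaling.

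HES1 (chromosome 3, 194136148 to 194138732, plus strand) had 20 and 176 fragments in shFABP4, against 31 and 41 in pLKO. As CPM both shFABP4 libraries lay above both pLKO libraries, at 7.87 and 8.61 against 3.45 and 2.96. The log2 fold change was 0.80 (SE 0.67, edgeR, adjusted p = 0.535). The 20 fragments of library 1 stand beside 15.9 expected from background, within their Poisson interval of 12.2 to 30.9, so HES1 RNA above background was not detectable in that library. NRARP (chromosome 9, 137299631 to 137302271, minus strand) had 55 and 41 fragments in shFABP4 and 23 and 36 in pLKO, with 49.9 expected from background in library 1. That lies within the Poisson interval of the 55 fragments (41.4 to 71.6), so NRARP RNA above background was not detectable there. Its log2 fold change was 1.21 (SE 1.05, edgeR, adjusted p = 0.548), and in shFABP4 2 its CPM of 2.01 lay below the 2.56 and 2.60 of pLKO. HEY1 (chromosome 8, 79762371 to 79767857, minus strand), another helix-loop-helix repressor, had 22 and 14 fragments in shFABP4 and 3 and 4 in pLKO. Its library 1 count was 0.519 times background.

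**Figure D2:**
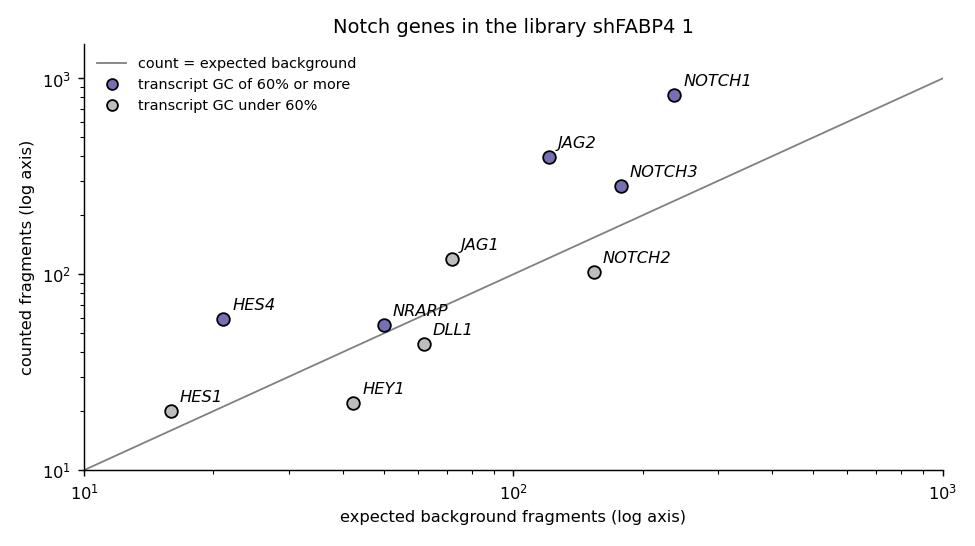
Counted fragments against the fragments expected from background in the library labelled shFABP4 1, for the 10 Notch genes (both log axes); the line marks equality and purple points have a transcript GC of 60% or more. NOTCH1 (3.48 times), JAG2 (3.29 times) and HES4 (2.80 times) lie farthest above the line, and NOTCH2, DLL1 and HEY1 lie under it.

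Ratios between genes of one library do not depend on scaling. The intervals given with them cover counting error within 1 library, not the spread between libraries. There were 25.1 HES1 fragments per 100 HES4 fragments in shFABP4 2 (95% exact binomial interval 21.2 to 29.7), against 3.69 (2.49 to 5.27) and 3.34 (2.39 to 4.56) in pLKO. In the library labelled shFABP4 1 the counted ratio was 33.9 (19.3 to 57.1), but its HES1 count is not detectable above background, so that value does not measure the RNA ratio. With expected background subtracted it was 10.8, with no interval. The pair was singled out after its values were seen. For the receptors, there were 2210 NOTCH2 fragments per 100 NOTCH1 fragments in shFABP4 2 (1720 to 2880), against 891 (687 to 1170) and 778 (641 to 951) in pLKO. In library 1, where NOTCH2 lies below the expected background, the counted ratio was 12.5 (10.1 to 15.4) and 0 with background subtracted. NOTCH3 per 100 NOTCH2 was 26.8 in shFABP4 2 (23.9 to 30.0), close to 26.1 (21.7 to 31.4) and 25.2 (21.7 to 29.1) in pLKO. JAG1 per 100 NOTCH2 was 22.2 in shFABP4 2 (19.6 to 25.1), against 10.7 (8.08 to 14.0) and 11.8 (9.53 to 14.4) in pLKO. Ratios to NOTCH2 in library 1 have a denominator of background alone and are not given.

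**Figure D3:**
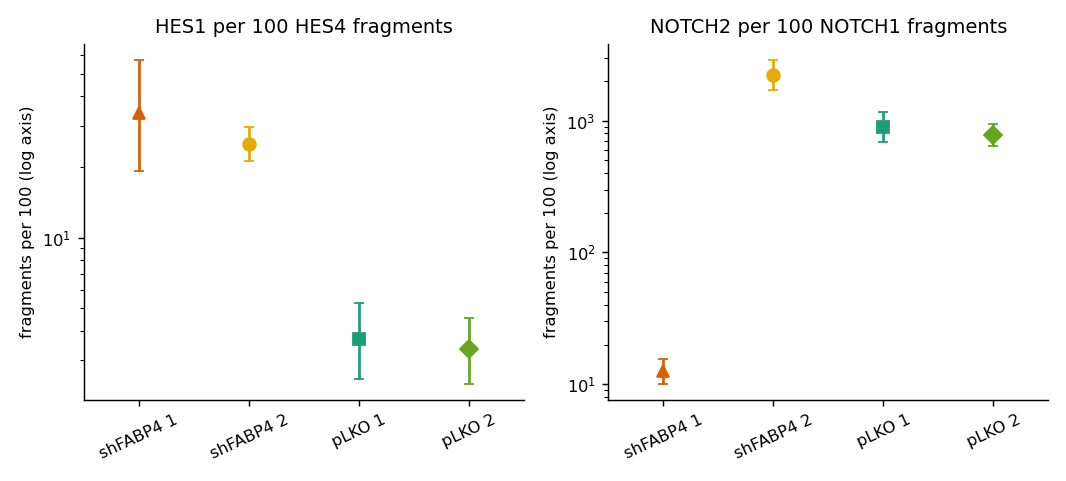
HES1 fragments per 100 HES4 fragments and NOTCH2 fragments per 100 NOTCH1 fragments in each library (log axes), shFABP4 left of pLKO, with 95% exact binomial intervals. The intervals cover counting error only. In shFABP4 2 HES1 per HES4 is 25.1, above 3.69 and 3.34 in pLKO, and NOTCH2 per NOTCH1 is 2210, above 891 and 778. The points of the library labelled shFABP4 1 (33.9 and 12.5) are not corrected for background, after which they are 10.8 and 0.

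Taken singly, the shFABP4 libraries gave different answers. With the library labelled shFABP4 1 left out, 10242 of 15301 genes passed in edgeR (66.9%, of them 34.2% of all tested higher and 32.7% lower), with the spread taken from the pLKO pair and shFABP4 2 assumed to vary as little. Of the 9 tested Notch genes 4 passed, against that 66.9%. HES4 was lower in shFABP4 2 by a log2 fold change of -1.65 (SE 0.07, edgeR, adjusted p = 5e-33) and NOTCH1 by -1.55 (SE 0.25, edgeR, adjusted p = 6.45e-08). HES1 was higher at 1.20 (SE 0.24, edgeR, adjusted p = 1.03e-05) and JAG1 at 0.85 (SE 0.17, edgeR, adjusted p = 1.38e-05). DLL1 was at 0.88 (SE 0.41, adjusted p = 0.0507), JAG2 at 0.23 (SE 0.14), NOTCH2 at -0.13 (SE 0.07), NOTCH3 at -0.06 (SE 0.15) and NRARP at -0.61 (SE 0.37), and these 5 did not pass. With shFABP4 2 left out instead, 85.9% of 27830 genes passed and 8 of 10 Notch genes, but that fit rests on the library with the background. There NOTCH1 was at 3.11 (SE 0.11), NOTCH2 at -2.92 (SE 0.11), HES1 at -0.93 (SE 0.49) and HES4 at -4.21 (SE 0.11). Between the single-library fits NOTCH1, NOTCH3, HES1 and NRARP changed side. NOTCH2 and HES4 were below 0 in both, and JAG1, JAG2 and DLL1 above 0 in both. JAG1 did not pass with library 1 alone (0.43, SE 0.21, edgeR, adjusted p = 0.0533).

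**Figure D4:**
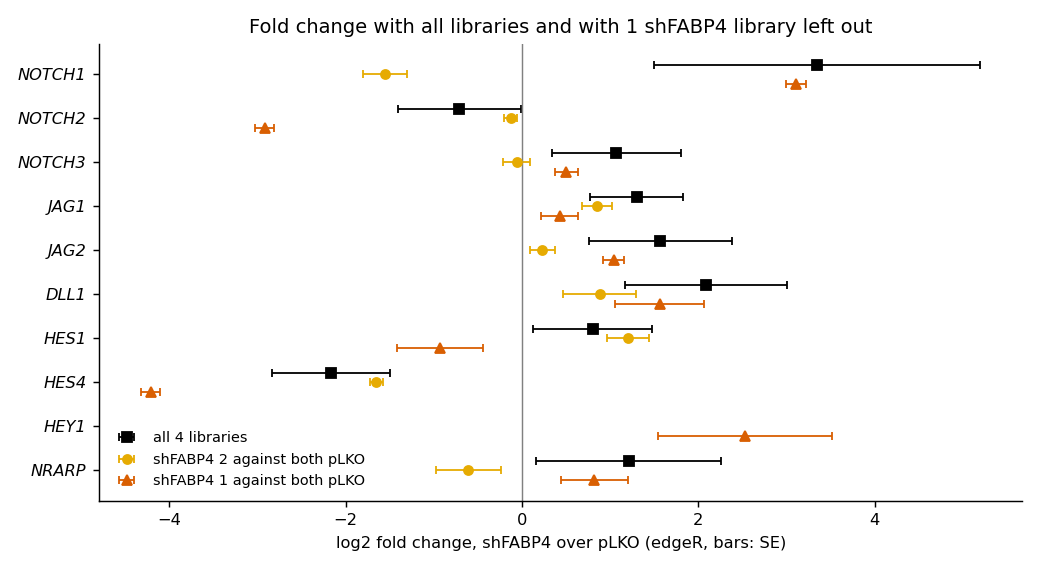
Log2 fold change of shFABP4 over pLKO (edgeR, bars are SE) for the Notch genes with all 4 libraries (black), with shFABP4 2 alone (yellow) and with the library labelled shFABP4 1 alone (orange), each against both pLKO libraries. HES4 lies left of 0 in every fit (-2.17, -1.65 and -4.21), while NOTCH1 is at 3.35, -1.55 and 3.11. HEY1 was tested in the last fit alone.

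The rest of the pathway was read from a list of 57 genes that includes the 10 members, of which 50 could be tested. Over all 4 libraries 0 of the 50 passed in edgeR and 4 had an unadjusted p under 0.05, and their median log2 fold change was 0.59 against 0.34 over all genes tested. With the library labelled shFABP4 1 left out, 14 of 50 were higher and 12 lower in shFABP4 2, where 34.2% and 32.7% of all genes tested were, at a median of -0.05 against 0.04 over all genes. Among 9 genes for receptor cleavage the smallest p belonged to the γ-secretase subunits APH1A and PSENEN. APH1A had 42 and 320 fragments in shFABP4 and 354 and 450 in pLKO (log2 fold change -1.75, SE 0.51, edgeR, adjusted p = 0.391), with 56.3 expected from background in library 1. PSENEN had 76 and 1626 in shFABP4, against 2048 and 3152 in pLKO (-2.48, SE 0.98, edgeR, adjusted p = 0.392), with 14.5 expected from background. The subunit NCSTN, named after its values were seen, had 99 and 1149 fragments in shFABP4 and 930 and 1354 in pLKO, with 44 expected from background in library 1. In shFABP4 2 alone NCSTN was at -1.08 (SE 0.07). It passed in edgeR there, as did APH1A (-1.43) and PSENEN (-1.76).

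Among the 5 genes for receptor glycosylation RFNG and LFNG, fringe enzymes that modify Notch, had the smallest p. RFNG had 155 and 1371 fragments in shFABP4 and 800 and 1303 in pLKO (-1.09, SE 0.58, edgeR, adjusted p = 0.411), with 73 expected from background in library 1. LFNG had 201 and 32, against 31 and 18 (3.06, SE 1.69, edgeR, adjusted p = 0.421), and its library 1 count was 3.05 times background. In the nuclear complex MAML3, a coactivator, had 51 and 170 fragments in shFABP4 and 22 and 34 in pLKO (1.76, SE 0.59, edgeR, adjusted p = 0.391), with 74.6 expected from background in library 1. SNW1, a splicing and transcription cofactor that binds RBPJ complexes, had 54 and 818 against 604 and 829 (-1.52, SE 0.73, edgeR, adjusted p = 0.399), with 12.3 expected. RBPJ itself had 53 and 142 fragments in shFABP4 and 68 and 78 in pLKO, at 0.27 (SE 0.59, edgeR, adjusted p = 0.817), with 41.1 expected. Of the ubiquitin ligases, DTX1 had 182 and 132 against 32 and 56 (2.39, SE 1.02, edgeR, adjusted p = 0.392) and MIB1, which acts on ligands, 41 and 151 against 24 and 40 (1.33, SE 0.59, edgeR, adjusted p = 0.392), with 82.8 expected for DTX1 and 40.2 for MIB1 from background.

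A ligand outside the 10 members, DLL3, which acts mainly within the cell and was named after its values were seen, was the most abundant ligand in pLKO. It had 111 and 243 fragments in shFABP4, against 522 and 780 in pLKO, or 16.7 and 4.54 FPKM against 22.2 and 21.5, with 49.4 fragments expected from background in library 1. Its log2 fold change was -1.88 (SE 0.58, unadjusted p = 0.0282, edgeR, adjusted p = 0.391) and -2.51 (SE 0.10, edgeR, adjusted p = 9.66e-36) in shFABP4 2 alone. Scaled by the 500 genes with the most pLKO counts it was at 0.90, against a median of 2.67 over all genes. DLL4, DLK1, HES3 and HES5 had no fragment in pLKO and 118, 197, 6 and 50 in the library labelled shFABP4 1, with 77.1, 85.1, 13.4 and 25 expected from background. In shFABP4 2, DLL4 had 5 and the other three 0.

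By the distance of centred log2 CPM over the 4 libraries, the coding gene most like HES4, the member with the most fragments per kb, was GPC1 among 8038 genes averaging 100 counts or more. Its distance was 0.0381, over 4 libraries of 1 line. GPC1, a glypican, had 383 and 4521 fragments in shFABP4, against 5364 and 8106 in pLKO, with 123 expected from background in library 1.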

How the data were processed

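RNA from 4 Daoy libraries (2 shFABP4, 2 pLKO) was prepared with TRIzol, poly(A) capture beads and Tn5 fragmentation, per the labels' protocols. The submitters' processing notes list FastQC, HISAT, StringTie and GRCh38. The deposited table holds raw fragment counts for each gene name from featureCounts 2.0.0 over GENCODE 38 exons with no strand option, per the file headers; the deposited exon length per gene name is another value of that table. Per the file headers, chimeric fragments were left out. The row of ANK2, broken over 7 lines, was left out, and the 37 mitochondrial gene names held 0 fragments.

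The test was edgeR 4.0.16 (R 4.3.3) with TMM, filterByExpr (count 10, total 15) and a two-sided robust quasi-likelihood F test, with p adjusted by Benjamini-Hochberg over all genes tested at a threshold of 0.05. The SE is the log2 fold change divided by the square root of F. CPM and FPKM were computed from the counts. DESeq2 1.42.0 and limma 3.58.1 (voom) were alternatives. Sampling noise did not account for the differences of the pLKO pair (13291 genes, chi-square 2.16 per degree of freedom), which stayed 2 samples. The shFABP4 pair differed far more (24712 genes, chi-square 359 per degree of freedom). Over the 14735 genes tested, log2 CPM correlated at r = 0.544 between the shFABP4 libraries and 0.987 between the pLKO libraries. The background of the library labelled shFABP4 1 is the fragments per kb of coding genes with no fragment elsewhere, in 6 bins of GC content, with GC (longest transcript) and gene type from GENCODE 29. It came to 54.6% of that library. A GC value was found for 91.5% of genes averaging 20 counts or more.

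The members, the pathway list and the rule for named genes were chosen with earlier results of these data known. The rule named the members, FABP4, up to 2 genes with the smallest p in each of 4 pathway groups, undetected receptors, ligands and HES genes, and the 3 genes nearest in pattern to the member with the most fragments per kb. Not every gene chosen this way is reported here. RBPJ and NOTCH2NLA were added after their values were seen. The edgeR script was tested on simulated counts.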

Additional observations from a re-analysis of the deposited data

How the results depend on the processing

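Across the 13 alternatives, the log2 fold changes of the 9 tested Notch genes kept direction and side of the threshold in 100 of 117 cases. As none passed in the main test, keeping the side meant only not passing, so this count does not measure stability. In 10 others the fold changes kept direction and passed the threshold, each with a shFABP4 library left out. They reversed in 7, and of these NOTCH1 without shFABP4 replicate 1 also passed. Leaving out 1 library at a time gave 0 to 23895 genes called over the whole table, 0 to 8 Notch members and 0 to 44 genes of the Notch list: 10242, 4 and 26 without shFABP4 replicate 1, 23895, 8 and 44 without shFABP4 replicate 2, and 0 without either pLKO library. Among all genes tested, the fit with no low-count filter called 69 and DESeq2 719. With the replicate number as a block 28 were called, none of them a Notch gene. Deviations of the libraries numbered 1 correlated at r = 0.0106 across genes, the labels state no pairing, and the block fit does not test it. Reversals were NOTCH1 at -1.55, NOTCH3 at -0.06 and NRARP at -0.61 without shFABP4 replicate 1, HES1 at -0.93 without shFABP4 replicate 2, NOTCH2 at 1.12 with scaling by the 500 top pLKO genes, and NRARP at -0.03 in limma-voom and -0.36 with background subtracted. The cause was not tested. With 1 library left out at a time NOTCH1 ranged from -1.55 to 3.11, NOTCH3 from -0.06 to 0.50, HES1 from -0.93 to 1.20 and NRARP from -0.61 to 0.82. HES4, JAG1, JAG2 and DLL1 reversed under none of the 13, with HES4 between -4.21 and -0.26 and JAG1 between 0.43 and 4.01. DLL1, whose library 1 count lay under background, fell to 0.14 (SE 1.43) with background subtracted. The median log2 fold change of all genes was 0.26 with RLE, 0.57 with upper-quartile, 1.30 with total-count and 2.67 with the 500-gene scaling. Depth limits HEY1, DLL1, HES1 and NRARP, each under 60 fragments in both pLKO libraries.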
